A study of Mus musculus with 2 samples.

Results

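Fluid secretion in the colon rests on anions that leave the epithelium, and 10 genes of that route are described here in nuclei of the inflamed mouse colon. The genes are the anion channels Cftr, Best2 and Clcn2, the cotransporter Slc12a2 (NKCC1), the potassium channel genes Kcnq1, Kcne3 and Kcnn4, and the receptors Htr4, Chrm3 and Gucy2c. They were taken by their exact symbols from the 32285 genes of the count tables, and all 10 had UMIs (unique molecular identifiers, each a counted transcript molecule) in both libraries.

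Chloride enters a crypt cell across its basolateral side through NKCC1, driven by the sodium gradient, and leaves into the lumen through CFTR, which opens after phosphorylation by protein kinase A. Potassium channels on the basolateral side keep the cell negative so that chloride continues to leave. Hormones, nerves and luminal peptides start the process through cAMP, calcium or cGMP, and bicarbonate follows through CFTR, bestrophins and exchangers.

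The nuclei came from snap-frozen colon of C57BL/6J mice aged 8 to 12 weeks, and every animal had received 2% dextran sodium sulfate (DSS) in 4 cycles of 3 days with 4 days of recovery, with the endpoint at day 28. The HIF-1α KO library held nuclei of Ncr1cre+ Hif-1α fl+/fl+ mice, in which Cre is driven by the promoter of Ncr1 (the NKp46 receptor of natural killer cells and other innate lymphoid cells), and the WT library held nuclei of wild type littermates. Each library was a pool of 3 animals and there was 1 library per genotype, so no test between genotypes was possible and every interval given covers counting error only. The study describes the tissue as whole colon, and no library came from mice without DSS.

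After filtering, 4884 WT and 4702 HIF-1α KO nuclei remained with 13259430 and 23605502 UMIs, and the median nucleus held 2058.5 UMIs in WT and 4197 UMIs in HIF-1α KO. The libraries shared 3 cell barcodes. Hif1a itself gave 172 CPM (UMIs of a gene per 1000000 UMIs) in WT and 199 CPM in HIF-1α KO. Its deletion is limited to cells that express Ncr1, of which WT held 1 UMI and HIF-1α KO held 0 UMIs (both under the floor of 3 UMIs), so Hif1a does not check the labels here.

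Clustering with the 10 genes held out gave 24 clusters. Marker genes named absorptive enterocyte-like nuclei (527 in WT, 834 in HIF-1α KO), enterocyte-like nuclei with Gsdmc2, Gsdmc3 and Gsdmc4 (567 and 786, called Gsdmc enterocyte-like), goblet-like nuclei (590 and 953), enteroendocrine-like nuclei (149 and 131), Lgr5 and Smoc2 stem-like nuclei (254 and 240) and cycling nuclei (451 and 322). An epithelial cluster led by Gm43824, Hmga2 and Nxpe2 kept the number 0 in place of a name (708 and 622). The nuclei outside the epithelium were fibroblast-like (230 and 120), smooth muscle-like (275 and 130), endothelial, neural and immune-like. Cluster 2, led by AY036118, Igkc and Gpx2, was unnamed and held 731 WT against 153 HIF-1α KO nuclei, and it is not counted as epithelium. In sums over mixed nuclei, fewer nuclei of a type and less RNA per nucleus cannot be told apart.

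Epithelial RNA found outside the epithelium, called free RNA here, sets a floor under these levels. Doublets and nuclei placed in the wrong class could add to it and were not told apart from it. In fibroblast-like nuclei, 10 genes restricted to epithelium stood at a median of 38.9% (20.7 to 80.0) of their epithelial level in WT and 51.4% (31.9 to 96.2) in HIF-1α KO, and the medians in immune-like nuclei were 44.0% and 67.2%. Krt8 was the highest of these genes and reached 129.5% in immune-like nuclei of HIF-1α KO. Levels are therefore read against the highest of fibroblast, smooth muscle and immune-like nuclei in the same library. With Chrm3 set apart because muscle expresses it, the lower bound of the 95% Poisson interval cleared that upper bound for 5 of 9 genes in WT and 7 of 9 in HIF-1α KO in stem-like nuclei. The same count was 6 and 7 in cycling nuclei, 5 and 5 in cluster 0, 4 and 4 in Gsdmc enterocyte-like nuclei, 2 and 2 in goblet-like nuclei, 1 and 2 in enteroendocrine-like nuclei and 1 and 1 in absorptive enterocyte-like nuclei. Immune-like nuclei stayed in the bound for Kcnn4, though lymphocytes use this channel. Endothelial nuclei were left out, though some genes stood higher there than in immune-like nuclei. Cftr held 407 against 370 CPM in WT, and Kcnq1 191 against 84.1 CPM in HIF-1α KO, near its 202 CPM in Gsdmc enterocyte-like nuclei. The counts were not repeated with endothelial nuclei. The transcripts of the secretory route were thus concentrated in the stem-like, cycling, cluster 0 and Gsdmc classes, with goblet and absorptive nuclei each standing out for named genes.

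**Figure D1:**
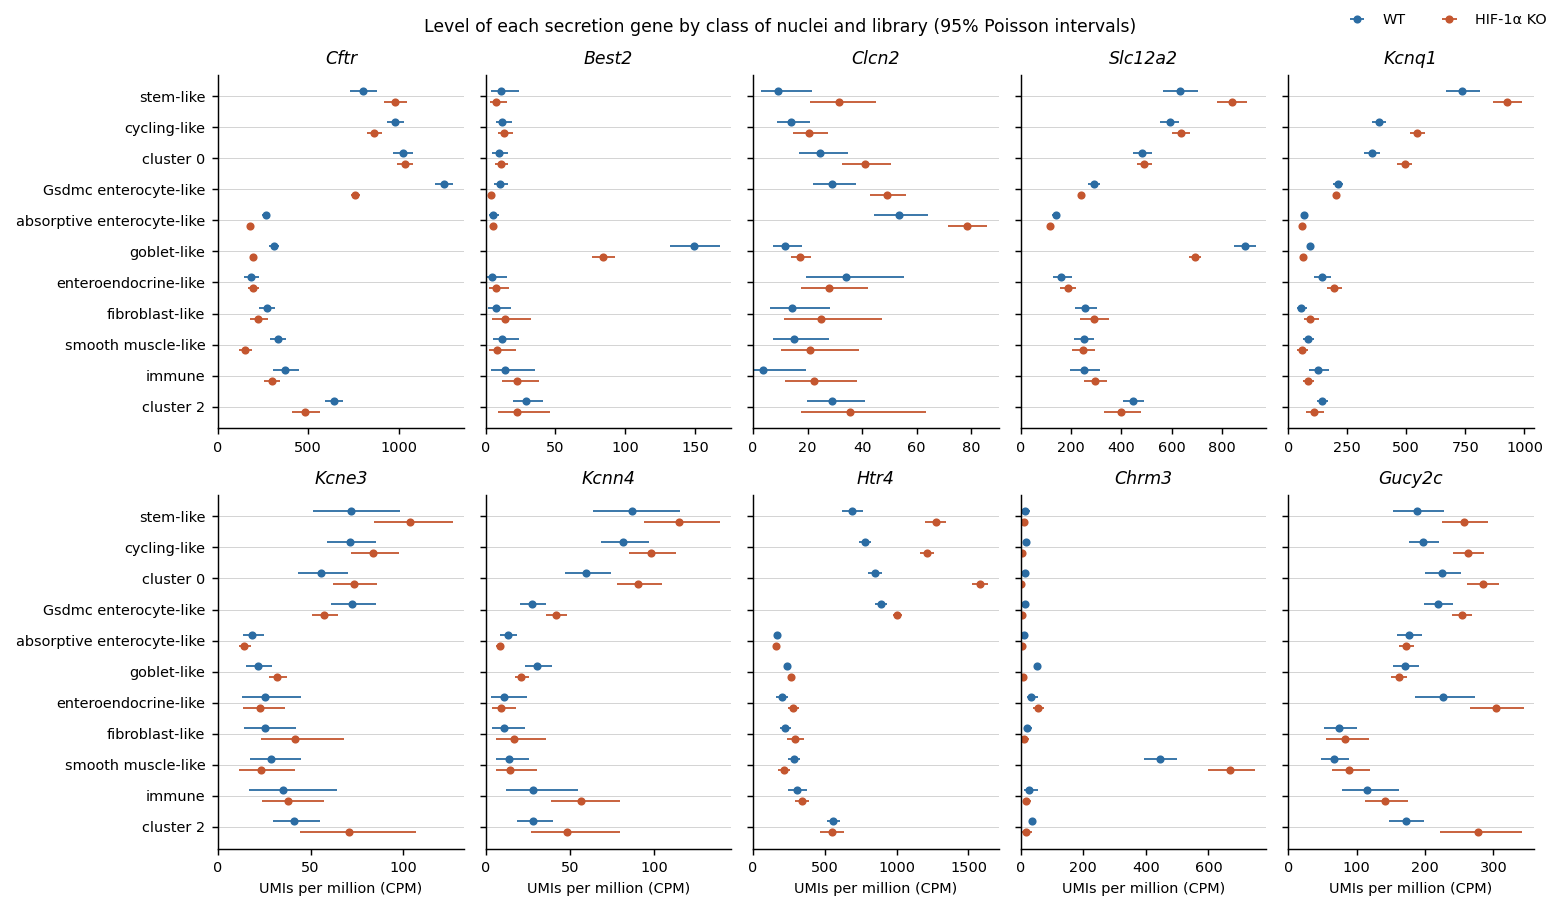
Level of each of the 10 genes (CPM, linear axis with its own range for each gene) in the 11 classes that hold at least 50 nuclei in both libraries, with WT and HIF-1α KO as separate points and bars for the 95% Poisson interval (counting error only). Cftr, Htr4 and Kcnq1 are high in stem, cycling, cluster 0 and Gsdmc enterocyte-like nuclei, Best2 in goblet-like nuclei (149 and 84.3 CPM), Clcn2 in absorptive enterocyte-like nuclei (53.6 and 78.3 CPM) and Chrm3 in smooth muscle-like nuclei (445 and 669 CPM).

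Cftr, the apical chloride and bicarbonate channel that cAMP opens, lies on chromosome 6 from 18170687 to 18322768 (plus strand; positions here are those of GRCm38, the build named mm10). Its WT level was highest in Gsdmc enterocyte-like nuclei, at 1251 CPM (1201 to 1302), followed by cluster 0 at 1025 CPM (971 to 1082), cycling nuclei at 981 CPM (934 to 1030) and stem-like nuclei at 803 CPM (730 to 882). In HIF-1α KO the order was cluster 0 at 1035 CPM (991 to 1080), stem-like at 980 CPM (918 to 1046), cycling at 867 CPM (826 to 908) and Gsdmc enterocyte-like nuclei at 760 CPM (735 to 786). The intervals of cluster 0 and cycling nuclei overlapped in WT, as did those of cluster 0 and stem-like nuclei in HIF-1α KO. Gsdmc enterocyte-like nuclei held 28.7% of all Cftr UMIs in WT. Absorptive enterocyte-like nuclei, at 267 CPM in WT and 177 CPM in HIF-1α KO, and goblet-like nuclei, at 310 and 193 CPM, did not exceed immune-like nuclei, at 370 and 297 CPM, so Cftr there is not separable from free RNA.

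Slc12a2, which loads the cell with chloride from the blood side, lies on chromosome 18 from 57878678 to 57946821 (plus strand). Goblet-like nuclei led in WT with 890 CPM (848 to 934), ahead of stem-like nuclei at 632 CPM (567 to 702) and cycling nuclei at 592 CPM (555 to 630). Stem-like nuclei led in HIF-1α KO with 840 CPM (781 to 901), ahead of goblet-like nuclei at 691 CPM (668 to 715) and cycling nuclei at 637 CPM (603 to 673). Goblet, stem-like and cycling nuclei thus shared the upper end in both libraries, and cluster 0 followed at 483 and 490 CPM. Absorptive enterocyte-like nuclei, at 140 and 116 CPM, stood below fibroblast-like nuclei, at 257 and 290 CPM.

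Kcnq1 and Kcne3 encode the pore and the accessory subunit of the basolateral potassium channel that works with cAMP-driven secretion, and they lie on chromosome 7 from 143106362 to 143427042 and from 100176502 to 100184869 (both on the plus strand). Kcnq1 peaked in stem-like nuclei, at 737 CPM (666 to 813) in WT and 927 CPM (866 to 992) in HIF-1α KO, and stepped down through cycling nuclei (384 and 547 CPM), cluster 0 (353 and 492 CPM) and Gsdmc enterocyte-like nuclei (210 and 202 CPM). Only the neighbours cycling and cluster 0 had overlapping intervals in that series, in both libraries. Kcne3 was far sparser, with 71.9 CPM in WT and 104 CPM in HIF-1α KO in stem-like nuclei and 71.5 and 83.9 CPM in cycling nuclei, and the WT intervals of these classes, cluster 0 and Gsdmc enterocyte-like nuclei all overlapped. Reads of Kcnq1 are uncertain because Kcnq1ot1, a long antisense transcript inside the gene, gave 3318 WT and 7464 HIF-1α KO UMIs and the use of strand in the counting is not given in the sources used here.

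The subunits Kcnq1 and Kcne3 were rarely caught in the same nucleus. After every nucleus was thinned to 1000 UMIs, 4.62% of WT epithelial-like nuclei with a Kcnq1 UMI also had a Kcne3 UMI, against 4.20% of those without, and in HIF-1α KO the shares were 9.33% and 3.63%. Cftr and Htr4 went together more often, with Htr4 in 46.1% of WT epithelial-like nuclei that had Cftr and in 28.2% of those without, and in 56.4% and 32.7% in HIF-1α KO. Within Gsdmc enterocyte-like nuclei the Htr4 shares were 58.0% and 43.3% in WT and 61.9% and 45.7% in HIF-1α KO. In stem-like nuclei of HIF-1α KO the order was reversed, at 58.3% with Cftr and 67.3% without. In absorptive enterocyte-like nuclei of WT the Htr4 shares were close, at 15.8% and 15.5%. For Cftr and Slc12a2 the epithelial shares were 32.8% and 31.2% in WT and 34.2% and 28.2% in HIF-1α KO. All such nuclei share a library and a mix of classes, so these shares are a description.

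Kcnn4, the calcium-activated potassium channel of the basolateral and apical membrane, lies on chromosome 7 from 24370263 to 24386690 (plus strand). It was also highest in stem-like and cycling nuclei, with 86.6 CPM in WT (63.6 to 115) and 115 CPM in HIF-1α KO (94.0 to 139) in stem-like nuclei, whose intervals overlapped those of cycling nuclei at 81.8 and 98.3 CPM. Lymphocytes use the same channel, and immune-like nuclei gave 27.9 CPM in WT and 56.7 CPM in HIF-1α KO, the latter equal to 143% of the epithelial level. Clcn2, the ClC-2 chloride channel, lies on chromosome 16 from 20702964 to 20717746 (minus strand) and followed the opposite axis. Absorptive enterocyte-like nuclei led with 53.6 CPM (44.4 to 64.1) in WT and 78.3 CPM (71.4 to 85.8) in HIF-1α KO, while stem-like nuclei held 9.21 and 31.4 CPM from 5 and 29 UMIs. In WT the interval of absorptive nuclei overlapped that of enteroendocrine-like nuclei (34.1 CPM, 19.5 to 55.3) and the wide intervals of lymphatic endothelial and glia-like nuclei and clusters 21 and 22, which held 4 UMIs or fewer each, and in HIF-1α KO it was clear of all other classes except glia-like nuclei (0 UMIs) and cluster 22 (1 UMI), whose wide intervals overlapped it.

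The promoters of Kcnn4 and Clcn2 are shown because both genes were called higher in HIF-1α KO in Gsdmc enterocyte-like nuclei, calls that several alternative settings did not keep. Each sequence is the 150 bases before the start of the gene in RefSeq (GRCm38.p6), 5′ to 3′ on the strand of the gene, at chr7:24370113-24370262 (plus) and chr16:20716637-20716786 (minus). The Clcn2 stretch lies inside the gene as placed above (20702964 to 20717746, minus strand), so the RefSeq start used for it differs from that one. Capitals mark ACGTG (the core letters that HIF factors and other basic helix-loop-helix factors read), TGACG (the core of cAMP response elements) or CTTTG (letters read by TCF factors), each on either strand.
Kcnn4: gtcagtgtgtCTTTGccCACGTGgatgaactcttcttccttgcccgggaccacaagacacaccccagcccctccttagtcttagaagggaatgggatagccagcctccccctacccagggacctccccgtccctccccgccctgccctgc
Clcn2: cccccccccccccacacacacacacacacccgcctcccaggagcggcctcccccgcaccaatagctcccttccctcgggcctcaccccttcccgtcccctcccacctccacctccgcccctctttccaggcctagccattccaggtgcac
The Kcnn4 stretch holds CTTTG next to CACGTG, a palindrome in which the ACGTG of each strand overlaps that of the other, and the Clcn2 stretch of 150 bases holds none of these letters, though 1 TGACG lies farther out within 250 bases. Over the 250 bases before the start, ACGTG occurs in 16.6%, TGACG in 17.8% and CTTTG in 48.6% of 32851 RefSeq mouse promoters, so a match is a description only.

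Best2, a bestrophin anion channel known from the bicarbonate secretion of colonic goblet cells, lies on chromosome 8 from 85007202 to 85014531 (minus strand). Goblet-like nuclei held 149 CPM (132 to 167) in WT and 84.3 CPM (76.5 to 92.8) in HIF-1α KO, whereas no other epithelial class exceeded 13.4 CPM in either library. They carried 69.2% of all Best2 UMIs in WT and 74.2% in HIF-1α KO. The neighbour below, at 28.9 CPM in WT and 22.5 CPM in HIF-1α KO, was the unnamed cluster 2, and its intervals were clear of those of goblet-like nuclei.

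Htr4, the serotonin receptor that raises cAMP, lies on chromosome 18 from 62324204 to 62496577 (plus strand). In WT it was evenly high in Gsdmc enterocyte-like nuclei at 890 CPM (849 to 933), cluster 0 at 849 CPM (800 to 901), cycling nuclei at 777 CPM (735 to 821) and stem-like nuclei at 689 CPM (621 to 763). In HIF-1α KO the order was cluster 0 at 1581 CPM (1527 to 1636), stem-like at 1271 CPM (1199 to 1346), cycling at 1211 CPM (1164 to 1260) and Gsdmc enterocyte-like nuclei at 1005 CPM (976 to 1035). Each WT interval overlapped its neighbour, while in HIF-1α KO cluster 0 and Gsdmc enterocyte-like nuclei stood apart from the overlapping stem-like and cycling nuclei. Absorptive enterocyte-like nuclei, at 164 and 159 CPM, and goblet-like nuclei, at 236 and 262 CPM, did not exceed immune-like nuclei, at 303 and 340 CPM.

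Gucy2c, the receptor for guanylin, uroguanylin and heat-stable enterotoxin that makes cGMP, lies on chromosome 6 from 136697284 to 136781765 (minus strand). Among the named epithelial classes and cluster 0, its levels ran from 171 CPM in goblet-like to 226 CPM in enteroendocrine-like nuclei in WT and from 161 CPM in goblet-like to 303 CPM in enteroendocrine-like nuclei in HIF-1α KO. Cluster 20, the enteroendocrine-like nuclei with Gcg, Pyy and Insl5, held 733 CPM (528 to 991) in WT and 807 CPM (680 to 951) in HIF-1α KO from 42 and 143 UMIs. The other enteroendocrine-like cluster, 14, held 155 and 157 CPM, so the high value of the class came from the cluster with these hormones. Immune-like nuclei held 115 CPM (79.2 to 162) in WT and 141 CPM (112 to 175) in HIF-1α KO, and goblet-like (171 and 161 CPM) and absorptive enterocyte-like nuclei (177 and 172 CPM) did not clear the upper bounds of these intervals, nor did stem-like nuclei in WT (188 CPM, 153 to 228), so Gucy2c was not separable from free RNA there.

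Chrm3, the muscarinic receptor through which acetylcholine raises calcium in secretory epithelium and in muscle, lies on chromosome 13 from 9875486 to 10360847 (minus strand). Smooth muscle-like nuclei held 445 CPM (396 to 499) in WT and 669 CPM (598 to 747) in HIF-1α KO, which was 45.6% and 59.6% of all Chrm3 UMIs. Lymphatic endothelial-like nuclei followed with 189 and 253 CPM from 40 and 32 UMIs. In the epithelium WT goblet-like nuclei reached 50.9 CPM (41.2 to 62.2) and enteroendocrine-like nuclei 34.1 CPM (19.5 to 55.3), and the other classes lay between 11.3 and 15.7 CPM. In HIF-1α KO enteroendocrine-like nuclei held 54.5 CPM (39.5 to 73.5) and goblet-like nuclei 8.37 CPM (6.03 to 11.3), and the other classes lay between 2.43 and 9.75 CPM.

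Across 22 profiles (11 classes in 2 libraries), the genes whose level followed each member most closely were found by Pearson correlation of log2(CPM + 10). Cftr ran with Myb (0.93), Ripk2 (0.93) and Htr4 (0.93), Htr4 with Myb (0.94), Kcne3 with Htr4 (0.94), Kcnn4 with Fam117b (0.93) and Kcnq1 with Hmga2 (0.96). Best2 ran with Gal3st2b (0.96) and Muc2 (0.94), Slc12a2 with Mfsd14a (0.91), Clcn2 with Slc9a2 (0.90), Chrm3 with Ryr3 (0.95) and Gucy2c with Shtn1 (0.94). The profiles share libraries, depth and free RNA, so these values are a description. They place Cftr, Htr4, Kcne3, Kcnn4 and Kcnq1 on the same rows of classes, Best2 on the goblet rows and Clcn2 on the absorptive rows.

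The comparison of the libraries asked which of the 10 genes differed between HIF-1α KO and WT after chronic DSS. A gene was called when its level differed by at least 1.5-fold, the 95% Poisson intervals of its levels did not overlap and at least 50 UMIs were present over both libraries. Over all nuclei, 1 of 10 genes was higher and 1 was lower, against 11.6% higher and 14.4% lower of all 14393 genes tested, and the median log2 ratio of the 10 was 0.04 (all genes -0.01). Within epithelial-like nuclei the count was again 1 and 1, against 11.0% and 11.9% of 13328 genes. The share of secretion genes called was thus no larger than that of all genes, and what follows concerns single genes in single classes.

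Clcn2 was the gene called higher over both sums. In epithelial-like nuclei it stood at 27.4 CPM (24.2 to 30.8) in WT and 44.7 CPM (41.9 to 47.7) in HIF-1α KO, a log2 ratio of 0.71 (0.51 to 0.91), and over all nuclei the log2 ratio was 0.77 (0.59 to 0.96). Fibroblast-like nuclei held 14.4 CPM in WT and 24.9 CPM in HIF-1α KO, with wide intervals. The epithelial levels did not clear the upper bounds of these intervals (28.4 and 47.2 CPM), and the part of free RNA in the call was not tested. Gsdmc enterocyte-like nuclei were called, at 29.0 CPM (21.9 to 37.6) and 49.2 CPM (42.9 to 56.0). Absorptive enterocyte-like nuclei, where Clcn2 was highest, cleared the fibroblast-like bounds in both libraries. Their log2 ratio of 0.55 (0.25 to 0.85) did not reach 1.5-fold. Clcn2 overlaps Polr2h, on the opposite strand, and Fam131a, which gave 235 and 243 UMIs and 48 and 46 UMIs in WT and HIF-1α KO. In pooled fibroblast, smooth muscle and immune-like nuclei the Clcn2 log2 ratio was 0.83 (-0.03 to 1.74) on 19 and 32 UMIs.

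Cftr was lower in Gsdmc enterocyte-like nuclei, where the WT level of 1251 CPM and the HIF-1α KO level of 760 CPM gave a log2 ratio of -0.72 (-0.79 to -0.64). At 1000 UMIs per nucleus, a Cftr UMI was found in 60.5% of the class in WT and in 40.7% in HIF-1α KO. Both clusters of the class showed it, with 1388 and 906 CPM in cluster 1 and 971 and 489 CPM in cluster 10. Cftr in cluster 0 stood at 1025 and 1035 CPM (log2 ratio 0.01, -0.09 to 0.11), and in stem-like nuclei the log2 ratio was 0.29 (0.12 to 0.46) and not called. The difference between the ratios of these classes was not tested.

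Cftr was also called lower in absorptive enterocyte-like nuclei, with a log2 ratio of -0.59 (-0.74 to -0.44), and in goblet-like nuclei, at -0.68 (-0.83 to -0.53). The goblet-like call was lost on every deposited barcode and without integration. The absorptive call was lost with equal weight for each nucleus, without the deepest 5% of nuclei, at resolution 2, without integration and under TMM and DESeq2 scaling. Neither call was made at 2-fold. These levels were at or below those of nuclei outside the epithelium, where Cftr was lower as well. Fibroblast, smooth muscle and immune-like nuclei together held 316 CPM in WT and 229 CPM in HIF-1α KO, a log2 ratio of -0.47 (-0.67 to -0.26), and smooth muscle-like nuclei alone had a log2 ratio of -1.15 (-1.56 to -0.76). The part of free RNA in the lower Cftr of absorptive and goblet-like nuclei was not tested.

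In Gsdmc enterocyte-like nuclei 2 of 8 genes tested were higher and 1 was lower, against 7.28% and 5.47% of 9089 genes. Kcnn4 was the other gene called higher, from 27.4 CPM (20.5 to 35.9) in WT to 41.7 CPM (35.9 to 48.0) in HIF-1α KO, so that the bounds of its intervals all but touched. That call was lost after thinning, with equal weight for each nucleus, with Malat1, mitochondrial and ribosomal genes out of the total, without the deepest 5% of nuclei, on every barcode, at resolution 2 and with the secretion genes among the clustering genes. Clcn2 in this class was lost after thinning, with equal weights and on every barcode. These levels of Kcnn4 and Clcn2 did not clear the upper bounds outside the epithelium. For Kcnn4 those were 23.5 and 36.1 CPM in fibroblast-like nuclei, and 55.0 and 79.6 CPM in immune-like nuclei, whose lymphocytes use the channel. The part of free RNA in these levels was not tested. The promoters printed above belong to Kcnn4 and Clcn2, the genes higher in this class. In absorptive enterocyte-like nuclei 0 of 8 genes were higher and 1 was lower, against 6.92% and 10.1% of 9233 genes. Under TMM scaling 10.3% of all genes in that class were higher and 6.67% lower, and Clcn2 higher replaced Cftr lower as the gene called.

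Htr4 was higher in stem-like and cycling nuclei and in the unnamed cluster 0. In stem-like nuclei it stood at 689 CPM in WT and 1271 CPM in HIF-1α KO (log2 ratio 0.88, 0.71 to 1.05), and in cluster 0 at 849 and 1581 CPM (0.90, 0.80 to 1.00). At 1000 UMIs per nucleus, the share of nuclei with an Htr4 UMI was 43.3% and 62.5% in stem-like nuclei and 47.3% and 70.1% in cluster 0. Cycling nuclei held 777 and 1211 CPM (0.64, 0.54 to 0.74), a call that was lost under TMM and DESeq2 scaling. Cluster 0 was not run under these scalings. The pooled nuclei outside the epithelium had an Htr4 log2 ratio of 0.11 (-0.10 to 0.31), and Gsdmc enterocyte-like nuclei one of 0.18 (0.10 to 0.26); the difference between classes was not tested.

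Set against all genes, 1 of 7 secretion genes was higher and 0 were lower in stem-like nuclei (10.1% and 3.36% of 5325 genes), 1 of 8 and 0 in cycling nuclei (8.12% and 3.88% of 8040 genes) and 2 of 8 and 0 in cluster 0 (11.0% and 5.13% of 7742 genes). The other gene called in cluster 0 was Kcnn4, from 59.5 CPM (46.9 to 74.3) in WT to 90.5 CPM (78.0 to 105) in HIF-1α KO. These levels did not clear the upper bounds of immune-like nuclei (55.0 and 79.6 CPM), whose lymphocytes use the same channel. They cleared those of fibroblast-like nuclei (23.5 and 36.1 CPM) and smooth muscle-like nuclei (25.9 and 30.4 CPM). The median log2 ratio of the genes tested was 0.41 in stem-like nuclei, where all genes had a median of 0.18, and 0.44 in cluster 0, where all genes had 0.16. Kcnq1 in stem-like nuclei (0.33, 0.16 to 0.51) and in cluster 0 (0.48, 0.32 to 0.64) did not reach 1.5-fold. TMM scaling changed the share of all genes called in stem-like nuclei to 7.19% higher and 4.47% lower, and in cycling nuclei to 6.67% and 4.95%.

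**Figure D2:**
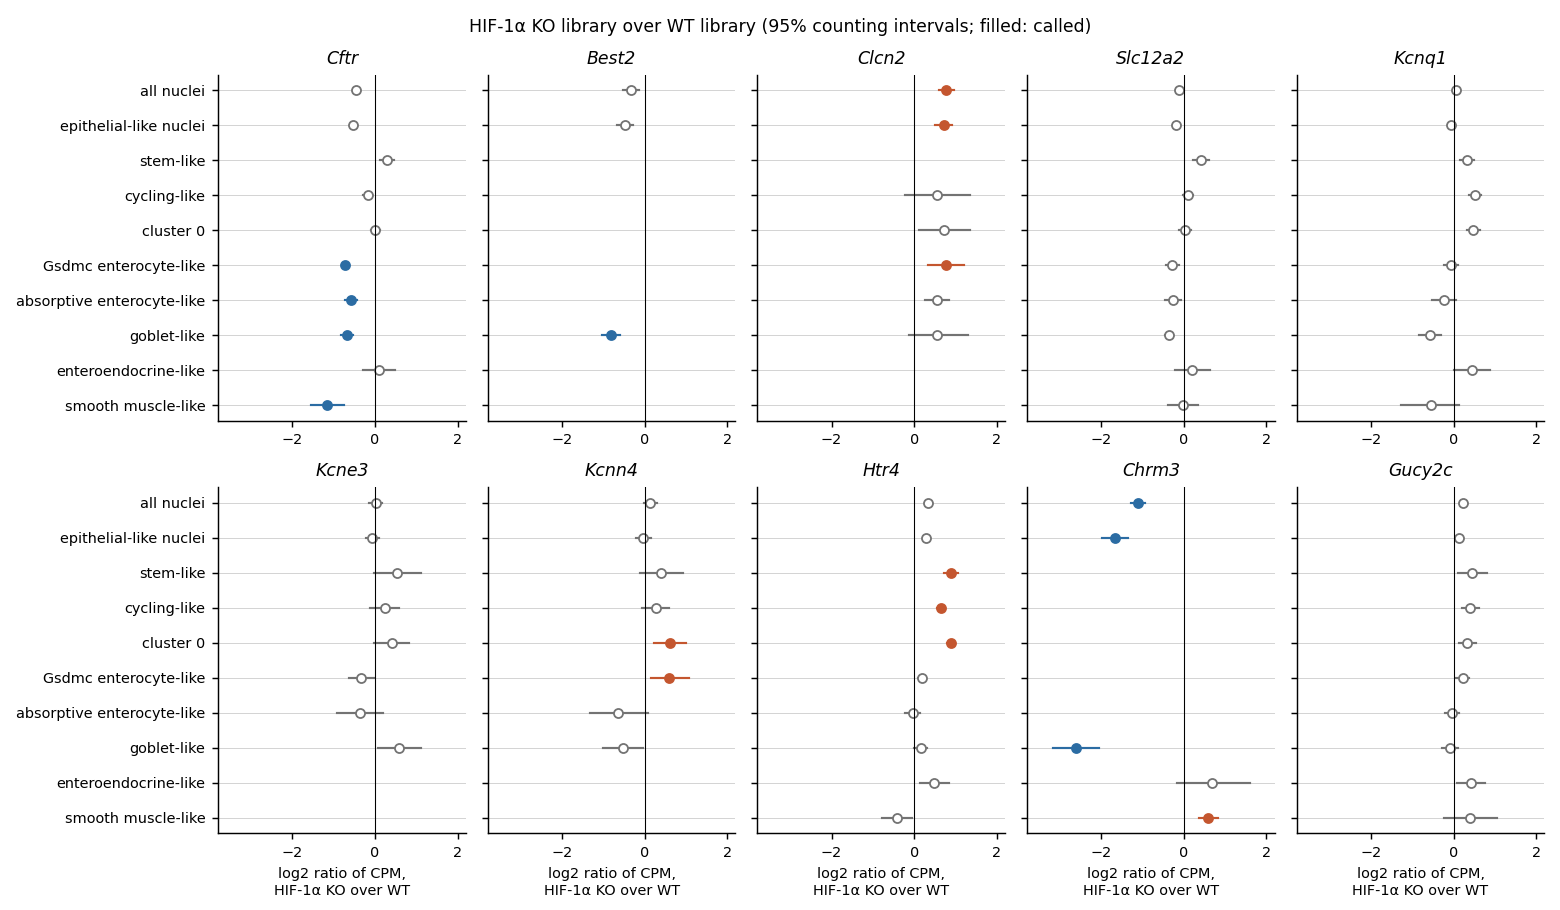
log2 ratio of HIF-1α KO over WT (axis in log2 units) for the 10 genes over all nuclei, over epithelial-like nuclei and in each class, where at least 50 UMIs were present, with bars for the exact conditional 95% interval and filled points where the gene was called. Htr4 is called higher in stem, cycling and cluster 0 nuclei (0.88, 0.64 and 0.90), Cftr lower in Gsdmc enterocyte, absorptive enterocyte and goblet-like nuclei (-0.72, -0.59 and -0.68) and Chrm3 lower in goblet-like nuclei (-2.60).

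Goblet-like nuclei had 0 of 10 genes higher and 3 lower, namely Cftr, Best2 and Chrm3, against 6.78% higher and 6.93% lower of 9339 genes, and the median log2 ratio of the 10 was -0.45 (all genes 0.04). Best2 went from 149 CPM (132 to 167, 278 UMIs) in WT to 84.3 CPM (76.5 to 92.8, 423 UMIs) in HIF-1α KO, a log2 ratio of -0.82 (-1.04 to -0.60). At 1000 UMIs per nucleus, the shares of the class with a Best2 UMI overlapped, at 11% (8.61 to 13.8) in WT and 8.40% (6.72 to 10.3) in HIF-1α KO, and the call was lost there and without the deepest 5% of nuclei. Slc12a2, at 890 and 691 CPM, had a log2 ratio of -0.36 (-0.45 to -0.28) and was not called. Zg16, a goblet product that is also a free RNA gene here, was lower by a log2 ratio of -0.95.

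The class joined cluster 3, led by Slc12a8 and Spdef (307 WT and 462 HIF-1α KO nuclei), cluster 7, led by Clca1, Fer1l6 and Fcgbp (195 and 303), and cluster 12, led by St6gal1, Scin and Capn9 (88 and 188). Best2 went in opposite directions in them. In cluster 7 it was lower, with 242 CPM (208 to 280) in WT and 65.1 CPM (54.2 to 77.6) in HIF-1α KO (log2 ratio -1.89, -2.23 to -1.56). In cluster 3 it was higher, with 41.8 CPM (28.9 to 58.3) and 73.4 CPM (62.1 to 86.2) (0.81, 0.27 to 1.40). The cluster 3 result was the weaker: its WT level did not clear the upper bound of immune-like nuclei (35.7 CPM), and at 1000 UMIs per nucleus its shares with a Best2 UMI overlapped, at 4.89% (2.76 to 7.93) and 6.94% (4.8 to 9.66), while those of cluster 7 did not, at 18.5% (13.3 to 24.6) and 5.61% (3.3 to 8.83). Cluster 12 held 204 and 141 CPM (-0.54, -0.98 to -0.08), with intervals that overlapped. In WT the levels of clusters 7 and 12 overlapped above cluster 3, and in HIF-1α KO cluster 12 stood above clusters 3 and 7, whose intervals overlapped.

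Several secretion genes were lower in cluster 7, where calls were not repeated under other scalings, weights or clusterings. Of 7 genes tested, 0 were higher and 5 were lower, against 5.85% and 6.37% of 6291 genes, with a median log2 ratio of -0.94 (all genes 0.04). The wider list of secretion genes taken up further on did not share this, with 2 of 28 genes higher (Ano1, 1.43, and Slc26a3, 0.65), 2 lower and a median log2 ratio of 0.04. Slc12a2 went from 964 CPM (896 to 1037) to 420 CPM (391 to 450) (-1.20, -1.35 to -1.05), Kcnq1 from 62.8 CPM to 32.8 CPM (-0.94, -1.50 to -0.36), Cftr from 224 to 136 CPM (-0.72) and Chrm3 from 54 UMIs in WT to 26 in the deeper HIF-1α KO cluster (-2.38, -3.12 to -1.68). The goblet genes of the same nuclei did not all follow: Muc2 stood at 5452 and 4856 CPM, Fcgbp at 6704 and 6345 CPM, Clca1 at 4978 and 4731 CPM, Zg16 at 8226 and 4135 CPM, Spdef at 170 and 261 CPM and Atoh1 at 148 and 53.1 CPM. Of these genes, Slc12a2 in WT stood above the nuclei outside the epithelium (257 CPM in fibroblast-like nuclei), while Cftr and Kcnq1 did not, with 370 and 297 CPM of Cftr and 126 and 84.1 CPM of Kcnq1 in immune-like nuclei. Cluster 3 had 1 of 8 genes higher and 1 lower, Cftr from 443 to 271 CPM, levels that did not clear the upper bounds of immune-like nuclei (447 and 345 CPM), against 7.11% and 4.13% of 7103 genes. Cluster 12 had 0 of 5 genes called in either direction, against 4.52% and 2.33% of 4644 genes.

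**Figure D3:**
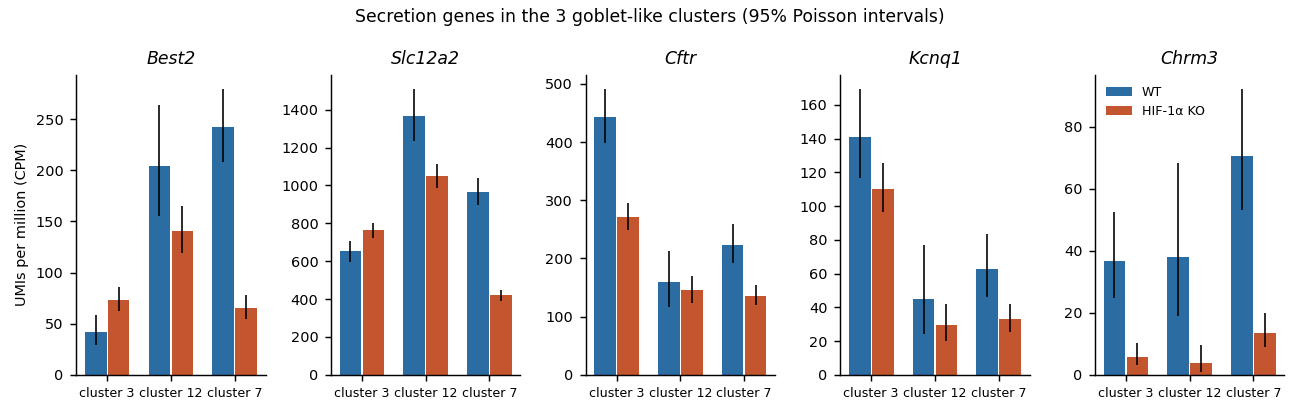
Levels (CPM, bars from 0) of Best2, Slc12a2, Cftr, Kcnq1 and Chrm3 in the goblet-like clusters 3, 7 and 12 in WT and HIF-1α KO, with lines for the 95% Poisson interval. Best2 falls from 242 to 65.1 CPM and Slc12a2 from 964 to 420 CPM in cluster 7, while Best2 goes from 41.8 to 73.4 CPM in cluster 3.

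Chrm3 was called lower in goblet-like nuclei and, only just past the 1.5-fold cut, higher in smooth muscle-like nuclei. Goblet-like nuclei went from 50.9 CPM (95 UMIs) in WT to 8.37 CPM (42 UMIs) in HIF-1α KO, a log2 ratio of -2.60 (-3.16 to -2.06), while the epithelium as a whole stood at 21.3 and 6.67 CPM (log2 ratio -1.68, -1.99 to -1.36). The goblet-like call was not made after thinning to 1000 UMIs per nucleus. Thinning removes UMIs, so Chrm3 may have fallen under the minimum of 50 there, and the missing call decides nothing. Outside epithelium and muscle, Chrm3 stood at 27.9 CPM in WT and 17.2 CPM in HIF-1α KO in immune-like nuclei, and at 19.8 and 11.0 CPM in fibroblast-like nuclei. The goblet-like level of HIF-1α KO lay below both, and the part of free RNA in the goblet-like call was not tested. In smooth muscle-like nuclei the log2 ratio was 0.59 (0.36 to 0.82), for levels of 445 and 669 CPM. The summed level of 10 smooth muscle markers in these nuclei was 10661 CPM in WT and 18372 CPM in HIF-1α KO. The smooth muscle call was not repeated under the alternative settings. Enteroendocrine-like nuclei went from 34.1 to 54.5 CPM (0.68, -0.18 to 1.61) and were not called, and the other named epithelial classes held fewer than 50 Chrm3 UMIs. Over all nuclei Chrm3 was lower by a log2 ratio of -1.10 (-1.27 to -0.94), and when the HIF-1α KO classes were weighted to the WT mix the log2 ratio was -0.07 (smooth muscle-like nuclei numbered 275 in WT and 130 in HIF-1α KO). Smooth muscle-like nuclei had 1 of 6 genes higher and 1 lower, Chrm3 and Cftr, against 6.09% and 3.15% of 4287 genes.

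Muscle RNA in epithelial nuclei was set beside Chrm3 through 10 smooth muscle markers. In WT goblet-like nuclei, Chrm3 stood at 11.4% of its smooth muscle level, above the shares of all 10 markers (lowest 0.70%, median 3.1%, highest 10.2%). In HIF-1α KO goblet-like nuclei it stood at 1.25%, above 5 of the 10 markers (lowest 0.23%, median 1.14%, highest 3.53%). The summed level of the markers in epithelial-like nuclei was 304 CPM in WT and 219 CPM in HIF-1α KO, with Dmd the most abundant at 120 and 72.3 CPM. The part of muscle RNA in the Chrm3 of goblet-like nuclei was not tested. Enteroendocrine-like nuclei in HIF-1α KO had Chrm3 at 8.15% of the muscle level, above all 10 markers (highest 3.04%), and in WT at 7.65%, where the highest marker reached 8.04% and 1 marker was at 0.

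**Figure D4:**
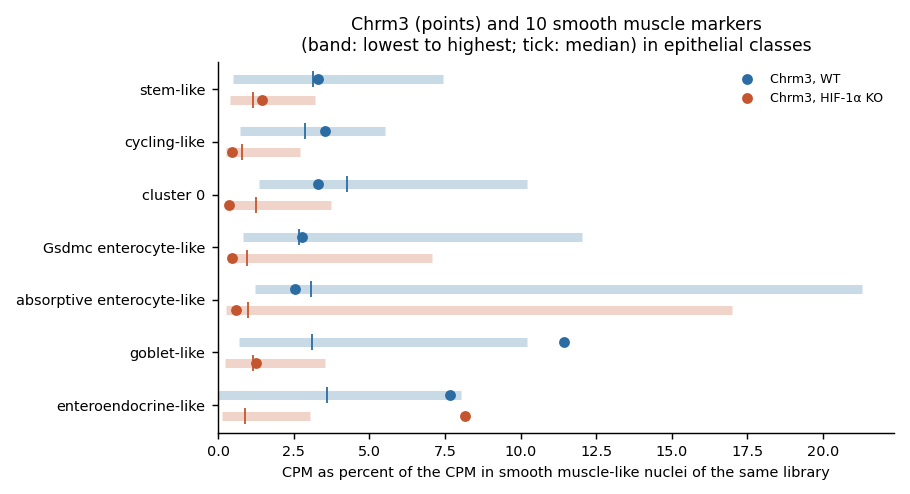
Chrm3 (points) and 10 smooth muscle markers (bands from the lowest to the highest, with a tick at the median) in epithelial classes, each as a percentage of its own level in smooth muscle-like nuclei of the same library. In WT goblet-like nuclei Chrm3 (11.4%) lies above all 10 markers, and in HIF-1α KO (1.25%) it lies among them.

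Enteroendocrine-like nuclei had 0 of 6 genes called in either direction, against 3.91% higher and 2.63% lower of 4788 genes. Htr4 stood at 200 CPM (162 to 245) in WT and 280 CPM (245 to 320) in HIF-1α KO, and Gucy2c at 226 CPM (185 to 273) and 303 CPM (266 to 344), with intervals that met or overlapped. Gucy2c was called in no class, with log2 ratios from -0.09 (-0.27 to 0.11) in goblet-like to 0.45 (0.11 to 0.80) in stem-like nuclei. Kcne3 was called in no class either, at 0.58 (0.08 to 1.12) in goblet-like and -0.33 (-0.63 to -0.03) in Gsdmc enterocyte-like nuclei. The receptor Gucy2c and the subunit Kcne3 thus gave no call in these libraries at this depth.

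A wider list of 43 secretion genes put the 10 in context. In epithelial-like nuclei 3 of 34 genes tested were higher and 3 were lower, with a median log2 ratio of 0.12 (all genes 0.00), against 11.0% and 11.9% of all genes. Among ligands and receptors, Guca2a, the guanylin that activates Gucy2c, was higher (120 UMIs in WT and 464 UMIs in HIF-1α KO, log2 ratio 0.86), and Vip, a neuropeptide that raises cAMP, was lower (8.02 and 3.38 CPM, -1.24). Smooth muscle-like nuclei held 9.08 and 8.42 CPM of Vip, no lower than the epithelium, and Vip was among the leading genes of cluster 2 (731 WT and 153 HIF-1α KO nuclei, not counted as epithelial-like). Guca2a was also called higher in goblet-like nuclei (4.28 and 12.6 CPM, from 8 and 63 UMIs) and in absorptive enterocyte-like nuclei (29.3 and 45.6 CPM). Outside the epithelium Guca2a stood at 9.08 and 16.8 CPM in smooth muscle-like nuclei and at 13.9 CPM (3.8 to 35.7) and 36.1 CPM (22.3 to 55.1) in immune-like nuclei, and neither class nor the epithelium as a whole cleared these upper bounds. Of the signalling genes Prkg2, the cGMP-dependent kinase that phosphorylates CFTR, was lower (-0.91, a ratio on 59 and 67 UMIs), and 0 of the 12 were higher. In goblet-like nuclei Pde4d, a phosphodiesterase that breaks down cAMP, was higher (2245 and 3488 CPM, 0.64), and Prkar1a, a regulatory subunit of protein kinase A, was lower (39.1 and 25.1 CPM, -0.64), a call lost under TMM scaling. The levels of Vip, Guca2a, Prkg2, Pde4d and Prkar1a given here did not clear the upper bounds outside the epithelium. The calls of Guca2a and Prkg2 were thus not separable from free RNA. Nuclei outside the epithelium may express Vip, Pde4d and Prkar1a themselves. For these genes the bounds do not measure free RNA alone, and its part was not tested.

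Among other transporters, 2 of 10 were higher and 0 lower in epithelial-like nuclei, where 11.0% and 11.9% of all genes were. Ano1, a calcium-activated chloride channel, went from 302 CPM in WT to 611 CPM in HIF-1α KO (1.02) and was called higher in goblet-like nuclei (216 and 495 CPM), absorptive enterocyte-like nuclei (548 and 995 CPM), Gsdmc enterocyte-like nuclei (462 and 760 CPM), stem-like nuclei (log2 ratio 0.69), enteroendocrine-like nuclei (0.76) and cluster 0 (123 and 255 CPM). It was not called in cycling nuclei (0.22, -0.02 to 0.47), and smooth muscle-like nuclei held 224 CPM (189 to 263) and 232 CPM (190 to 279), bounds that absorptive and Gsdmc enterocyte-like nuclei cleared in both libraries, goblet-like nuclei cleared in HIF-1α KO alone, and stem-like, enteroendocrine-like and cluster 0 nuclei did not clear. Slc26a3, the chloride and bicarbonate exchanger of the colon surface, went from 454 to 717 CPM (0.66). It was called in Gsdmc enterocyte-like nuclei (299 and 599 CPM, the WT level not clear of immune-like nuclei) and enteroendocrine-like nuclei (155 and 247 CPM, 0.67). Smooth muscle-like nuclei held 150 and 221 CPM of Slc26a3, and the part of free RNA in the enteroendocrine-like call was not tested. In absorptive enterocyte-like nuclei, where Slc26a3 was highest at 1427 and 1794 CPM, the log2 ratio of 0.33 (0.27 to 0.39) was not called, nor were those of goblet-like (0.32), stem-like (0.30), cycling (0.44) and cluster 0 nuclei (0.32). Absorptive enterocyte-like nuclei made up 10.8% of nuclei in WT and 17.7% in HIF-1α KO. Sgk1, a kinase that raises sodium and chloride transport, was the gene of the scaffold and kinase list called lower, from 73.2 to 16.8 CPM (-2.12), and goblet-like nuclei held 114 and 9.57 CPM. Sgk1 is also an early stress and hormone response gene, and its level was 30.3 and 4.21 CPM in smooth muscle-like nuclei and 45.3 and 18.9 CPM in immune-like nuclei.

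Slc4a4, the basolateral bicarbonate importer, was called higher in stem-like (0.64), cycling (0.97) and cluster 0 nuclei (0.64). The stem-like call was lost under TMM and DESeq2 scaling, and cluster 0 was not run under them. Prkacb, a catalytic subunit of protein kinase A, was higher in stem-like (75.5 and 132 CPM, 0.81) and cycling nuclei (80.5 and 128 CPM, 0.66), below its 242 and 202 CPM in smooth muscle-like nuclei. The wider list had 3 of 23 genes higher and 0 lower in stem-like nuclei, 3 of 29 and 0 in cycling nuclei and 4 of 30 and 2 in cluster 0, where 10.1%, 8.12% and 11.0% of all genes were higher and 3.36%, 3.88% and 5.13% lower. Kcnma1, the large-conductance potassium channel, stood at 346 CPM in WT and 172 CPM in HIF-1α KO in cluster 0 (-1.01). Smooth muscle-like nuclei held 4275 and 5912 CPM of it and goblet-like nuclei 2761 and 2951 CPM. The muscle level is too high to serve as a floor for free RNA, and the part of free RNA in this call was not tested. Goblet-like nuclei had 3 of 31 genes of the list higher and 2 lower (6.78% and 6.93% of all genes), absorptive enterocyte-like nuclei 2 of 32 and 1 (6.92% and 10.1%) and Gsdmc enterocyte-like nuclei 2 of 33 and 3 (7.28% and 5.47%).

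**Figure D5:**
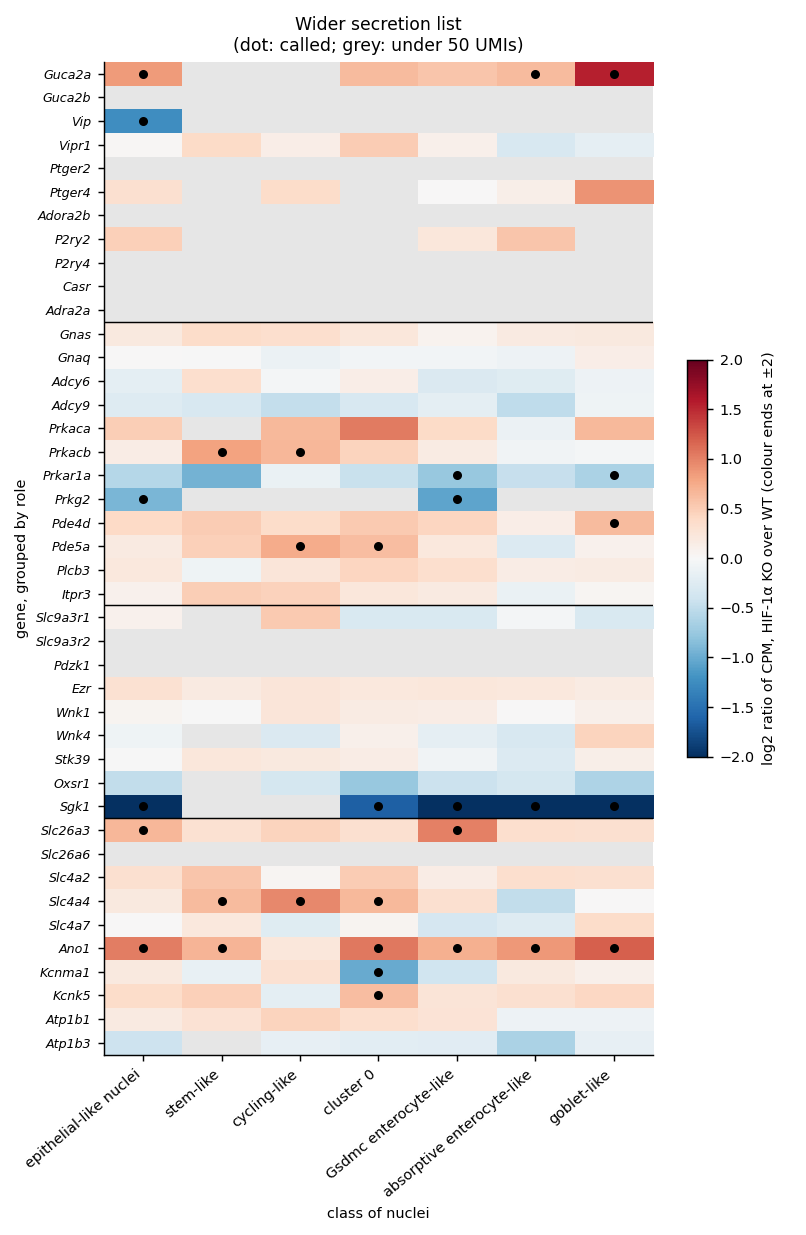
log2 ratio of HIF-1α KO over WT (colour, in log2 units) for genes of the wider secretion list (rows, grouped by role) in epithelial-like nuclei and 6 epithelial classes (columns), with a dot where the gene was called and grey where fewer than 50 UMIs were present. In epithelial-like nuclei Guca2a (0.86), Slc26a3 (0.66) and Ano1 (1.02) are called higher, and Vip (-1.24), Prkg2 (-0.91) and Sgk1 (-2.12) lower.

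Other differences between the libraries stood beside these. HIF-1α KO nuclei were deeper in all epithelial classes, with a median of 4635 against 2547.5 UMIs in goblet-like nuclei. Among immediate-early genes over all nuclei, Jun (1.33), Atf3 (1.69), Egr1 (0.93) and Fosb (0.99), or 4 of 7, were called higher, against 11.6% of all genes. Of the genes that mark colon regions, Hoxb13 stood at 45.3 CPM in WT and 34.2 CPM in HIF-1α KO, Hoxa13 at 9.65 and 11.9 CPM and Hoxd13 at 9.73 and 12.5 CPM. Hoxb13 was called lower in goblet-like nuclei (-0.86), where 6.93% of all genes were lower. Over all nuclei Hoxb5 (-1.48) and Hoxb6 (-1.27) were called lower, on 58 and 37 UMIs and on 99 and 73 UMIs, where 14.4% of all genes were lower. The region lists held further genes that are not given here, so these values do not describe the lists as wholes. The part of depth, immediate-early genes or region genes in the ratios of the secretion genes was not tested.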

How the data were processed

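Nuclei of frozen mouse colon were sequenced after DSS colitis with the 10x Genomics single-nucleus method, 1 library per genotype, each a pool of 3 animals. The authors deposited UMI counts per gene and barcode, not normalized, made with Cell Ranger 7.0.1 on mm10 per the labels; the use of introns and strand is not given in the sources used here. Barcodes with 400 to 5000 detected genes and at most 10% mitochondrial UMIs were kept, as in the study. Seurat 5.3.0 (R 4.3.3) clustered them by canonical correlation integration on 2000 variable genes, without the 10 secretion genes and the wider list, with 30 components at resolution 1. Clusters were named from marker lists, of which at least 3 had to pass. The cut-offs of that naming were set after the data were seen. No doublet caller was run, and the deepest 5% of nuclei were left out as an alternative. Summed counts per class and library were turned into CPM with exact 95% Poisson intervals, shares got Clopper-Pearson intervals, and log2 ratios got exact conditional intervals (SciPy 1.17.1). Shares of nuclei come from nuclei thinned to 1000 UMIs (63 nuclei of HIF-1α KO and 0 of WT were shallower). The scaling alternatives used edgeR 4.0.16 (TMM) and DESeq2 1.42.0 (size factors). The calling procedure was tested on simulated data, and the outcome is not reported here. The text names all 10 genes, genes of the wider, free RNA, region and immediate-early lists, up to 3 leading genes of a cluster and the 3 genes most alike to each member. The 10 genes and all lists were chosen with earlier results of these data known. The comparisons within cluster 0, the goblet-like clusters, enteroendocrine-like and smooth muscle-like nuclei, and the reading of levels against nuclei outside the epithelium, were added after seeing the data. RefSeq promoter entries matched 5 of the 10 genes. A gene of the wider list is not reported here by name.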

Additional observations from a re-analysis of the deposited data

Results flagged for a closer look

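The genotype ratio of Best2 had opposite signs in goblet-like nuclei taken apart. It was -0.82 on the log2 scale over the class, -1.89 in cluster 7 and 0.81 in cluster 3, each clear of 0 by counting error. The difference between the clusters was not tested, since each genotype has 1 library. Cluster 7 held 185 WT and 125 HIF-1α KO Best2 UMIs, and cluster 3 held 34 and 150. After thinning to 1000 UMIs per nucleus the shares of nuclei with a Best2 UMI in cluster 3 overlapped between the libraries.

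The genotype ratio of Chrm3 had opposite signs in goblet-like and smooth muscle-like nuclei. It was -2.6 in goblet-like nuclei and -2.38 in cluster 7, and 0.59 in smooth muscle-like nuclei. In enteroendocrine-like nuclei it was 0.68 (-0.18 to 1.61) and not called. This difference was not tested either. The summed level of the 10 smooth muscle markers was 10661 CPM in WT and 18372 CPM in HIF-1α KO in smooth muscle-like nuclei, and 252 and 188 CPM in goblet-like nuclei. Chrm3 itself stood at 27.9 and 17.2 CPM in immune-like nuclei, above the goblet-like level in HIF-1α KO.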

How the results depend on the processing

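Of 87 counts of called genes under another setting, 65 stayed within 1.5 times the main count and 22 did not, and no call turned its direction. Calls within cluster 0, the single goblet-like clusters, enteroendocrine-like and smooth muscle-like nuclei were not repeated under any of these settings. Asking for at least 2-fold left 1 gene over all nuclei, 1 in epithelial-like and 1 in goblet-like nuclei (Chrm3, lower, in each, where 7.05%, 5.53% and 3.37% of all genes were lower), and 0 in absorptive enterocyte-like, Gsdmc enterocyte-like, stem-like and cycling nuclei. In these last classes 3.15%, 3.01%, 4.13% and 2.87% of all genes were higher and 4.54%, 2.56%, 1.90% and 1.77% lower. Thinning to 1000 UMIs left 1 gene in goblet-like and 1 in Gsdmc enterocyte-like nuclei, Cftr in both, lower, where 3.35% and 2.38% of all genes were lower. Sparse genes may fall under the minimum of 50 UMIs after thinning. With each nucleus weighted equally, absorptive enterocyte-like nuclei had 0, Gsdmc enterocyte-like nuclei 1 (Cftr, lower) and cycling nuclei 2 (Htr4 and Kcnq1, higher). In these classes 6.41%, 6.88% and 7.48% of all genes were higher and 8.66%, 5.41% and 3.18% lower. Without the minimum of UMIs, absorptive enterocyte-like and cycling nuclei had 2 each, the added gene being Chrm3, lower. There 3.75% and 4.45% of all genes were higher and 6.45% and 2.37% lower. TMM and DESeq2 scaling left 0 in cycling nuclei, where 6.67% and 6.57% of all genes were higher and 4.95% and 5.04% lower. In absorptive enterocyte-like nuclei the count was 0 without the deepest 5% of nuclei, at resolution 2 and without integration, and 2 on every deposited barcode. The shares of all genes in that class were 6.32%, 6.67%, 5.79% and 6.68% higher and 8.49%, 8.99%, 8.71% and 9.29% lower. On every deposited barcode Gsdmc enterocyte-like nuclei had 1 gene (Cftr, lower), where 6.58% of all genes were higher and 5.19% lower. With the HIF-1α KO classes mixed as in WT, 1 gene was called over all nuclei (Clcn2, higher), where 10.3% of all genes were higher and 5.23% lower. The cause of these shifts was not tested, apart from those a stricter or looser rule makes by its construction. In goblet-like nuclei Best2 gave way to Kcnq1 without the deepest 5% of nuclei and Cftr was lost on every barcode and without integration. Leaving out cluster 2 from all nuclei, or adding it to epithelial-like nuclei, kept Clcn2 higher and Chrm3 lower. Stem-like nuclei had no value on every barcode, at resolution 0.5 or without integration, since no cluster took that name. The class with the highest level was the same for 10 of 20 values (10 genes in 2 libraries) on every barcode, 13 at resolution 0.5 and 10 without integration. Depth limits Kcne3, Kcnn4, Best2, Clcn2 and Chrm3, which fell under 50 UMIs over both libraries in some classes. No paired analysis was possible because the labels give no replicate numbers and each genotype has 1 library.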
